A study of Mus musculus with 2 samples.

Results

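The 50 genes described here are Wnt ligands, their receptors, secreted antagonists, intracellular components and target genes, taken from a list of gene symbols and drawn up with earlier results of these data known. All 50 were found, with 1 identifier each, among the 55487 genes of the deposited expression table. The cells were apoptotic osteoblasts, bone-forming cells killed with ultraviolet light, from old and from young mice, with 1 RNA-seq library per age. In both groups adherent cells from cut bone were passaged 3 times, held in osteogenic medium for 3 days and irradiated for 0.5 h, and over 90% then stained with Trypan Blue, which passes through damaged membranes. The labels name the old library's treatment as day 5 and the young library's as day 0, while the protocol field names no treatment, so day and age cannot be told apart. The labels give no strain, no age in weeks, and no number of animals or cultures behind a library.

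Wnt proteins are secreted signals that bind Frizzled receptors together with the co-receptors LRP5 and LRP6. Without a signal, a destruction complex built on Axin, APC and the kinase GSK3 marks β-catenin for breakdown. With a signal, β-catenin builds up and acts with TCF/LEF factors on target genes. R-spondins raise the number of Frizzled receptors at the surface by removing the ubiquitin ligases ZNRF3 and RNF43. In bone the pathway drives osteoblast formation, and osteocytes restrain it with the antagonist sclerostin. ROR receptors carry Wnt signals that do not pass through β-catenin.

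The library total behind the deposited values, inferred from steps between low values, was 18114336 in the old and 16333396 in the young library. Reads of each gene were recovered with that total, which is a scaling figure and not a sum of counted reads. Levels are in FPKM, fragments counted on a gene scaled for its length and for library size, and ratios are old over young. Brackets hold the 95% counting interval of a ratio of FPKM, which covers counting error only. No difference has a replicate check, and no test was run. Of 9 osteoblast markers 8 were measured, and the list summed to 17053 FPKM in the old and 20064 FPKM in the young library. Among them was Col1a1, the main collagen chain of bone, at 6788 FPKM in the old and 8568 FPKM in the young library. Sp7, a transcription factor that osteoblasts need, was at 28.9 FPKM in the old and 55.5 FPKM in the young library, while Bglap, osteocalcin, had 6 and 3 reads. Sequence that the markers share with other genes was not looked for. Of the 8 measured osteoblast markers, 6 had log2 ratios below 0 and 2 above, while 59.6% of all measured genes lay below 0. Spp1, osteopontin, went against the sum, at 1732 FPKM in the old and 224 FPKM in the young library (7.74 [7.49 to 8.003]). Gm42793 covers 18.75% of the exon bases of Spp1. Alpl was at 3.28 FPKM in the old and 2.78 FPKM in the young library (1.18 [0.746 to 1.87]). Of 5 osteocyte markers 2 were measured, and the list summed to 102 FPKM in the old and 68.5 FPKM in the young library. Almost all of that sum was Pdpn, at 97.0 FPKM in the old and 67.9 FPKM in the young library. Phex had 42 and 14 reads, Mepe 1 and 0, and Fgf23 0 in both. Dmp1, a matrix protein of osteocytes and mineralising osteoblasts, was at 4.85 FPKM in the old and 0.377 FPKM in the young library. Chondrocyte markers summed to 97.9 FPKM in the old and 98.2 FPKM in the young library, almost all of it Sox9 and Col2a1, with Acan at 0 in both. Endothelial and erythroid markers had none above the filter described next. Of 7 leukocyte markers 1 was measured, Cd68, at 4.36 FPKM in the old and 4.51 FPKM in the young library, while Cd79a had 12 and 3 reads, Csf1r 6 and 1, Ptprc 0 and 1, and the other 3 none. Of 5 adipocyte markers 1 was measured, Cebpa, at 2.81 FPKM in the old and 2.10 FPKM in the young library, while Fabp4 had 8 and 0 reads and Adipoq 1 and 0. In bulk RNA, fewer cells of a type and less RNA per cell cannot be told apart, and the part of these marker differences in the Wnt values was not tested.

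Of the 50 members, 29 reached a mean of 1 FPKM over both libraries, 13 had reads but stayed under that level, and 8 had no read in either library. Differences were measured as the log2 ratio of FPKM + 1, which understates those of low genes. A single member, Rspo2 (3.45% of the 29), was higher by 2-fold or more in old cells, against 1.97% of the 12561 genes past the same filter, and none was 2-fold lower, against 0.868%. At 1.5-fold, 3 members were higher (Rspo2, Wnt10a and Fzd1), or 10.3% of the 29 against 5.52% of all genes. Lower at 1.5-fold were 2 (Wnt10b and Fzd5), or 6.90% against 4.47%. All members encode proteins, and among the 10964 protein-coding genes the matching shares were 1.75% and 0.374% at 2-fold and 4.82% and 3.2% at 1.5-fold, higher and lower. The median log2 ratio was −0.09 over the 29 members and −0.07 over all genes, and 18 of the 29 lay below 0, as did 59.6% of all genes. The middle of the members thus lay close to that of all genes, and with so few members past a fold the shares rest on single genes. How reads on overlapping or antisense genes were assigned is not stated, so reads on shared exons cannot be split. Another gene covers over 5% of the exon bases of 6 members, and that share is given with each of them. For 4 more (Wnt5a, Fzd6, Tcf7l1 and Axin2) it is 4.58% at most.

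**Figure D1:**
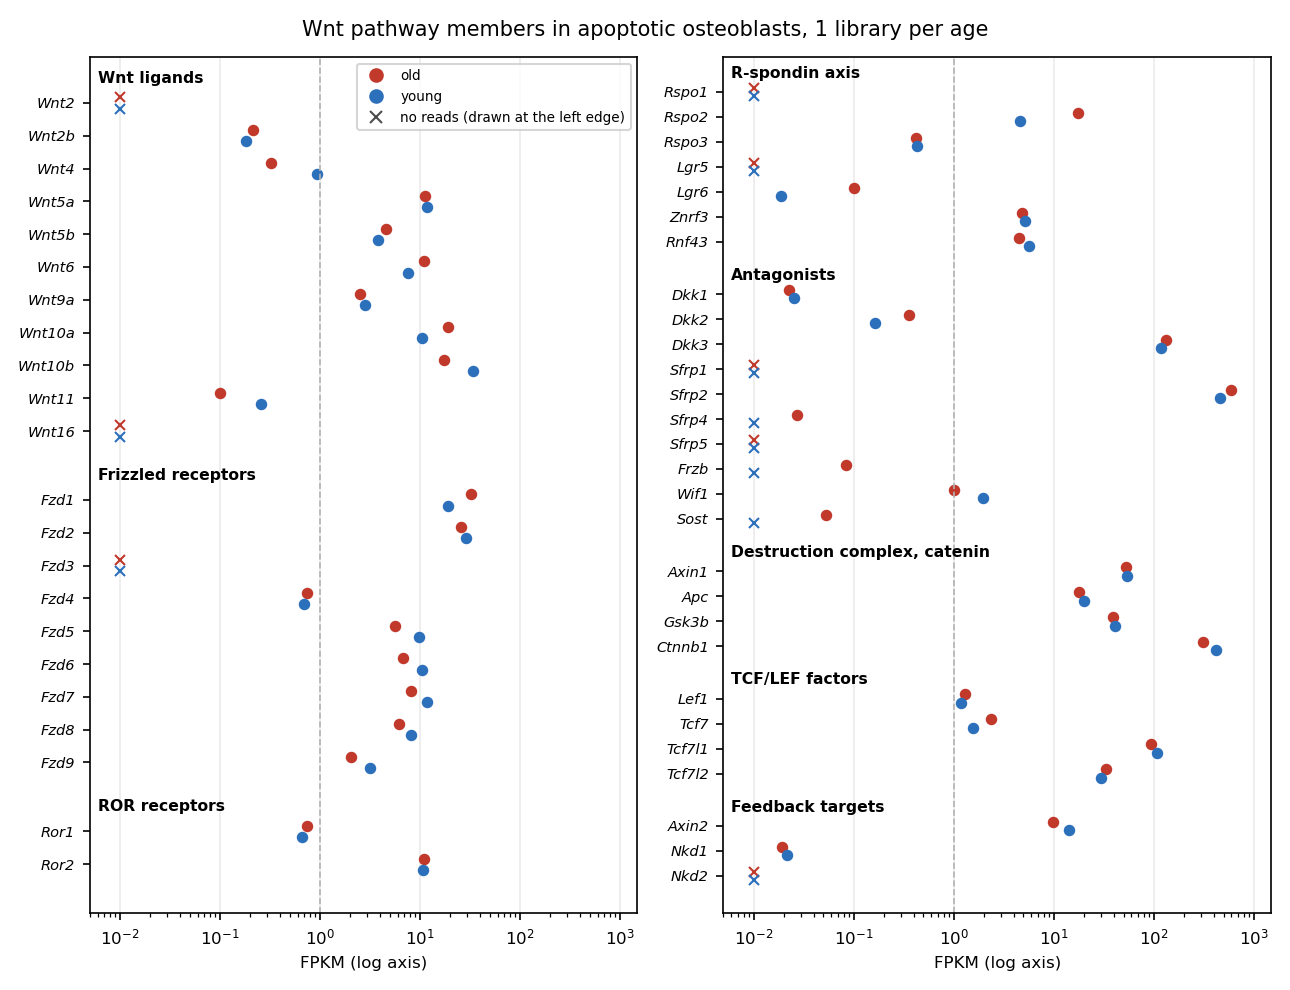
Expression level of each of the 50 members by role, as FPKM on a log axis, with the old library in red above the young library in blue. A cross at the left edge is a library without a read, and the dashed line marks 1 FPKM. Sfrp2 and Ctnnb1 are the highest members in both libraries.

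**Figure D2:**
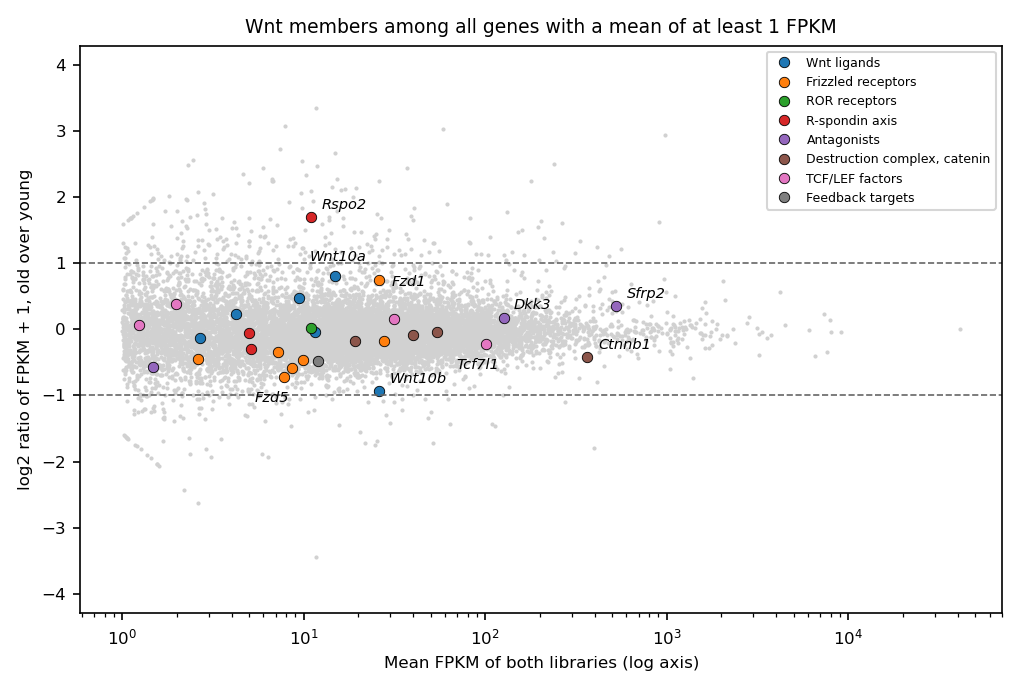
Log2 ratio of FPKM + 1, old over young, against the mean FPKM of both libraries on a log axis, for the 12561 genes past the 1 FPKM filter (grey) and the 29 measured members (coloured by role). The dashed lines mark 2-fold. Rspo2, at 1.70, is the 1 member beyond them.

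The sequences just upstream of 5 members are shown, and sequence farther from the start was not searched. The 5 sequences are those of Wnt10b, Fzd1 and Fzd5, which were past 1.5-fold, of Wnt6, which lies beside Wnt10a, and of Axin2, a standard β-catenin target. Each is the 250 bases before the RefSeq start, 5′ to 3′ on the gene's own strand, from assembly GRCm38.p6. Capitals mark the core of the TCF/LEF motif, CTTTG, or its reverse complement CAAAG. RefSeq had promoter entries for 35 of the 50 members, and none in the table used for Rspo2 and Wnt10a.
Wnt10b: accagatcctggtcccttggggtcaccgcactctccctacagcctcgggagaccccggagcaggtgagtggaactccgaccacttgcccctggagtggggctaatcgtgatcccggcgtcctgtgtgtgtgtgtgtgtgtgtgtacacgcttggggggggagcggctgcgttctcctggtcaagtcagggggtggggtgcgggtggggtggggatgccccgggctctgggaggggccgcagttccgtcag
Wnt6: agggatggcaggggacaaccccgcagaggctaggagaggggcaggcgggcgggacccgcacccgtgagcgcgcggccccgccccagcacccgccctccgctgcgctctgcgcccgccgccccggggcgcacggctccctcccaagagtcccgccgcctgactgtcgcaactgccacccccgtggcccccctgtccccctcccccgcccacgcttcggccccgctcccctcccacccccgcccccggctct
Fzd1: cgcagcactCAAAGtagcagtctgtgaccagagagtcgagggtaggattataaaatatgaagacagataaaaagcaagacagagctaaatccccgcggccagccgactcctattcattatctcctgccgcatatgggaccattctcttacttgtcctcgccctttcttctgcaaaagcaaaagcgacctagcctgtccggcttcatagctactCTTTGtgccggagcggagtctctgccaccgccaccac
Fzd5: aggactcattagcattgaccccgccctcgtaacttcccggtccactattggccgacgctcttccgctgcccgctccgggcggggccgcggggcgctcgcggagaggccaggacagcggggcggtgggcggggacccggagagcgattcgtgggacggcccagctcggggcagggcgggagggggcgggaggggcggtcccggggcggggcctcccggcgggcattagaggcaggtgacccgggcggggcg
Axin2: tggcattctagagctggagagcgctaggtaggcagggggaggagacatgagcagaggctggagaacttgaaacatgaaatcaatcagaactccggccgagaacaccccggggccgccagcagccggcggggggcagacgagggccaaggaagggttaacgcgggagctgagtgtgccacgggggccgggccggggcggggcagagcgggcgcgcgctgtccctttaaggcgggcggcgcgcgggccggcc
These lie at chr15:98778151-98778400 (minus strand) for Wnt10b, chr1:74771642-74771891 (plus strand) for Wnt6, chr5:4758217-4758466 (minus strand) for Fzd1, chr1:64737751-64738000 (minus strand) for Fzd5 and chr11:108920099-108920348 (plus strand) for Axin2. The TCF/LEF core was found 2 times in the Fzd1 window and in none of the other 4. It occurs in 48.6% of all 32851 promoter entries and in 19 of the 45 entries of members (42.2%). The GC box GGGCGG, or CCGCCC on the other strand, was in 64.4% of member entries and 32.7% of all entries. It appeared 9 times upstream of Fzd5, 6 times upstream of Wnt6 and 2 times upstream of Axin2. The TATA box TATAAA, or TTTATA, appeared 1 time upstream of Fzd1, in 22.2% of member entries and in 12.4% of all. These matches describe letters in a window and are not known binding sites.

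The ligands differed in which gene led. In the old library Wnt10a was the highest listed ligand and Wnt10b the second, whereas Wnt10b stood well above all others in the young library. Wnt10b, a canonical ligand that favours bone over fat formation in mice, was at 17.5 FPKM in the old and 34.3 FPKM in the young library, on 601 and 1061 reads (ratio 0.511 [0.461 to 0.565], log2 ratio of FPKM + 1 −0.93). It ranked 138 from the lowest of 12561 genes (ENSMUSG00000022996, chromosome 15, 98770712 to 98778150, GRCm38). Its close relative Wnt10a went the other way, at 19.2 FPKM in the old and 10.5 FPKM in the young library, on 539 and 265 reads (ratio 1.83 [1.58 to 2.13], log2 ratio 0.82).

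The level of Wnt10a relative to Wnt10b was 1.095 [0.973 to 1.23] in the old library and 0.305 [0.266 to 0.349] in the young. In the old library the order of both is therefore within counting error, and it turned to 0.984 [0.875 to 1.11] when reads were divided by the longest transcript of each gene in place of the length behind the FPKM. Wnt10b made up 26.1% of the summed FPKM of the 11 ligands in the old library and 47.5% in the young, and Wnt10a 28.6% and 14.5%. The sum itself was 67.0 FPKM in the old and 72.2 FPKM in the young library.

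**Figure D3:**
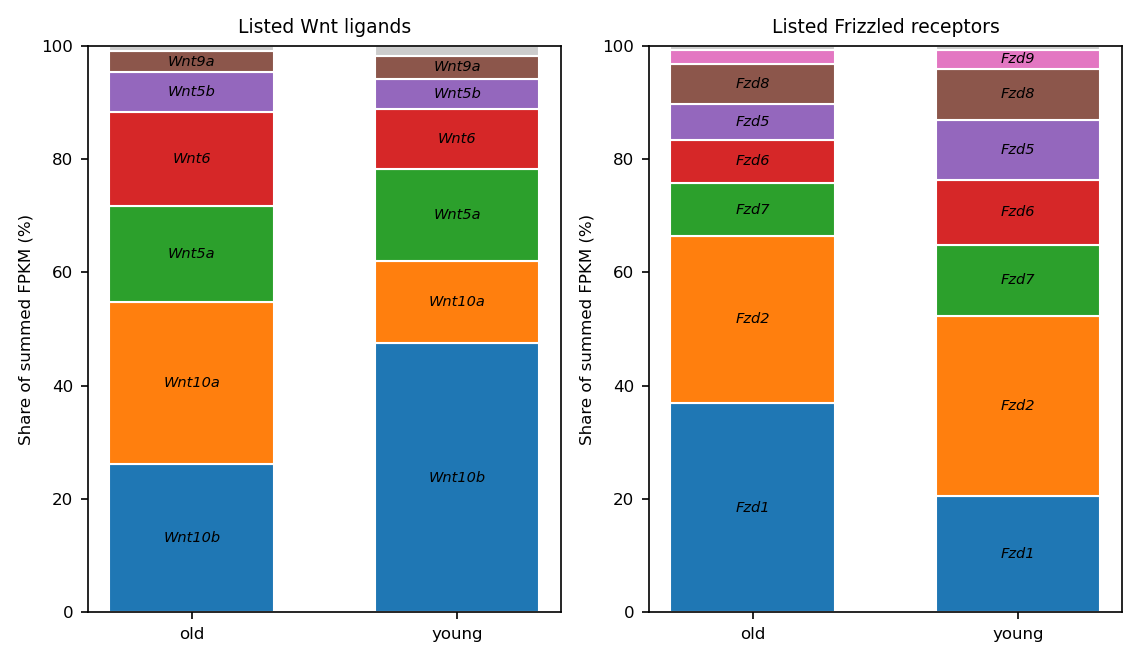
Share of the summed FPKM, in percent, of the 11 listed Wnt ligands (left) and of the 9 listed Frizzled receptors (right), with the old library left of the young one in each panel. Wnt10b takes 26.1% of ligand FPKM in the old and 47.5% in the young library, and Fzd1 takes 37.0% of Frizzled FPKM in the old and 20.6% in the young library. Grey is the remaining genes.

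Wnt6, another ligand of the canonical pathway, was at 11.1 FPKM in the old and 7.69 FPKM in the young library (ratio 1.44 [1.199 to 1.74]). It is the genomic neighbour of Wnt10a: on chromosome 1 the end of Wnt6 and the start of Wnt10a are 6193 bases apart, on the same strand, and both were higher in the old library. Wnt10b has the same kind of neighbour in Wnt1, 11706 bases away on chromosome 15 and on the opposite strand, but Wnt1 had 1 read in the old library and 0 in the young. Wnt9a, 16175 bases from Wnt3a on chromosome 11, was at 2.53 FPKM in the old and 2.84 FPKM in the young library (0.890 [0.707 to 1.12]), and Wnt3a had no read.

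Wnt5a and Wnt5b, which signal largely without β-catenin, had intervals that include 1. Wnt5a was at 11.4 FPKM in the old and 11.7 FPKM in the young library (0.969 [0.850 to 1.107]). Wnt5b was at 4.64 FPKM in the old and 3.81 FPKM in the young library (1.22 [0.973 to 1.53]). Under the filter, Wnt4 had 25 reads in the old and 64 in the young library (0.352 [0.213 to 0.567]), a wider gap in ratio than that of Wnt10b but at under 1 FPKM. Wnt2b had 9 and 7 reads and Wnt11, with 8.80% of its exon bases under Gm8398, had 3 and 7. Wnt2 and Wnt16 had none, which allows up to 0.104 FPKM in the old and 0.116 FPKM in the young library for Wnt16 at a limit of 3 reads.

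Among the Frizzled receptors, 6 of the 7 measured were lower in the old library and Fzd1 was higher, while 59.6% of all genes were lower. The median log2 ratio was −0.44 over the 7 and −0.07 over all genes. Fzd1 was at 32.7 FPKM in the old and 19.1 FPKM in the young library, on 2484 and 1308 reads (ratio 1.71 [1.60 to 1.83], log2 ratio 0.75). Fzd2 was at 26.0 FPKM in the old and 29.3 FPKM in the young library (0.886 [0.829 to 0.948]). Fzd1 thus stood above Fzd2 in the old library, at 1.26 [1.18 to 1.34] times its level, and below it in the young library, at 0.651 [0.605 to 0.6996] times. For both genes the mean and the longest transcript length are equal, so the choice of length does not enter this order.

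Fzd5 was the lowest Frizzled by ratio, at 5.62 FPKM in the old and 9.86 FPKM in the young library (0.570 [0.508 to 0.638], log2 ratio −0.72), and Gm38058 covers 17.8% of its exon bases. Fzd6 was at 6.75 FPKM in the old and 10.6 FPKM in the young library (0.639 [0.542 to 0.754]). Fzd7, a receptor for several Wnts in stem cells, was at 8.22 FPKM in the old and 11.7 FPKM in the young library (0.703 [0.635 to 0.778]). Fzd8 was at 6.27 FPKM in the old and 8.22 FPKM in the young library (0.762 [0.687 to 0.845]), and Fzd9 at 2.07 FPKM in the old and 3.18 FPKM in the young library (0.652 [0.488 to 0.867]). All 6 intervals lay below 1, as far as counting error goes, but the share of all genes with an interval below 1 was not computed. The sum over the 9 Frizzleds was 88.3 FPKM in the old and 92.6 FPKM in the young library, so the total differed less than most of its members. Fzd4 had 90 and 76 reads, under 1 FPKM. Fzd3 had no read, which allows up to 0.0252 FPKM in the old and 0.0279 FPKM in the young library.

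Ror2, a receptor for Wnt5a, was at 11.0 FPKM in the old and 10.8 FPKM in the young library (1.02 [0.901 to 1.16]). Ror1, its relative, had 77 and 62 reads, a level of 0.738 FPKM in the old and 0.659 FPKM in the young library. Wnt5a and the 2 ROR genes thus had ratios between 0.969 and 1.12 with intervals that include 1.

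The largest difference of any measured member was that of Rspo2, which encodes the secreted Wnt enhancer R-spondin 2. It was at 17.4 FPKM in the old and 4.66 FPKM in the young library, on 1015 and 246 reads (ratio 3.72 [3.23 to 4.29], log2 ratio 1.70). It ranked 59 of 12561 genes by log2 ratio (ENSMUSG00000051920, chromosome 15, 43020794 to 43170826, minus strand). It was also nearly the only R-spondin with reads: Rspo1 had none, Rspo3, with 13.1% of its exon bases under Gm48159, had 15 and 14 reads, and Rspo4 had none. Its exons overlap no other gene and none of its sequence words was found in another gene.

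R-spondins bind LGR receptors, and of these Lgr4 was the one measured. It was at 15.6 FPKM in the old and 23.3 FPKM in the young library (0.671 [0.612 to 0.735]), opposite in direction to Rspo2. The level of Rspo2 relative to Lgr4 was 1.109 [1.0103 to 1.22] in the old library and 0.200 [0.173 to 0.230] in the young, or 1.90 and 0.342 by longest transcript. Lgr6 had 6 reads in the old and 1 in the young library, and Lgr5, a stem cell marker in several tissues, had none. The ligases that R-spondins remove were closer to even. Znrf3 was at 4.88 FPKM in the old and 5.12 FPKM in the young library (0.952 [0.819 to 1.107]). Rnf43 was at 4.46 FPKM in the old and 5.74 FPKM in the young library (0.777 [0.634 to 0.953]).

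**Figure D4:**
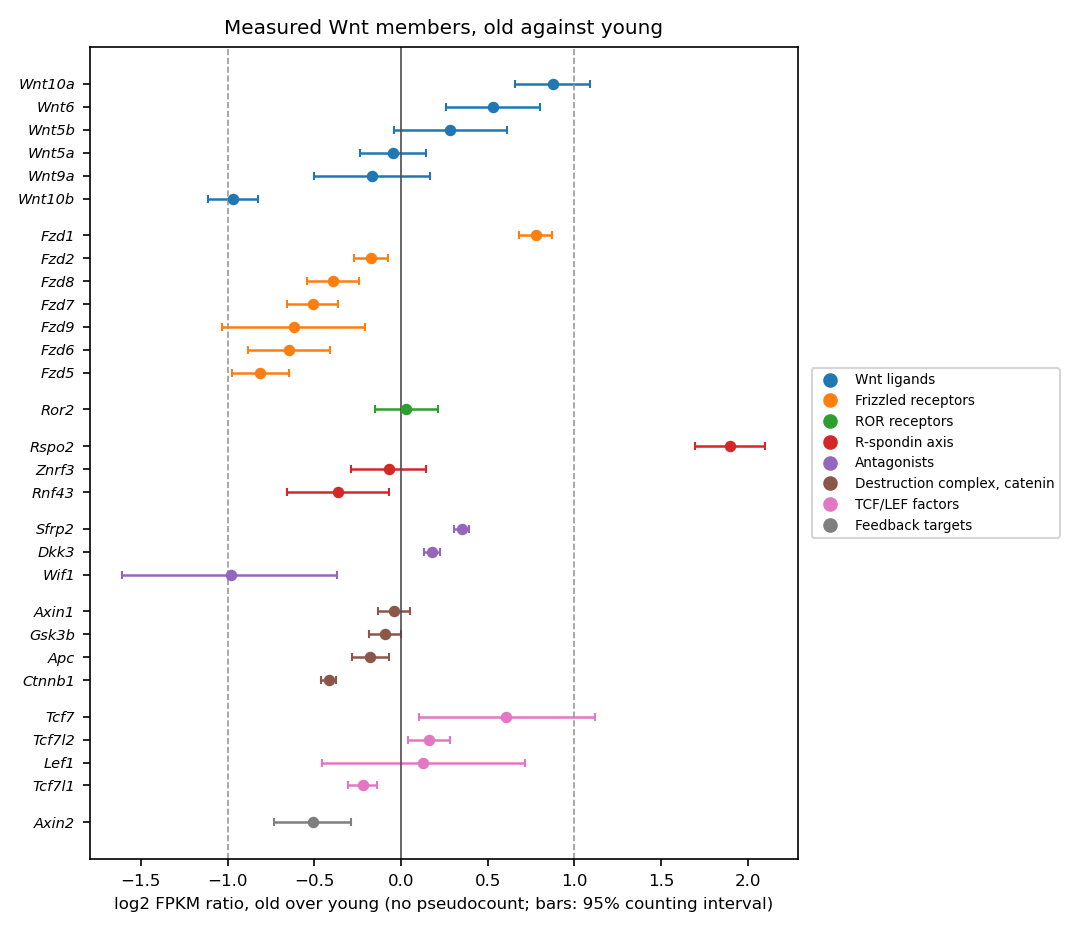
Log2 ratio of FPKM, old over young, without a pseudocount, for the 29 measured members grouped by role, with bars for the 95% counting interval and dashed lines at 2-fold. Fzd1 lies to the right of 0 and the other 6 Frizzleds to the left. Wif1 has a wide interval because it rests on 36 reads in the old and 64 in the young library.

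The secreted antagonists were dominated by 2 genes that were modestly higher in the old library. Sfrp2, a secreted Frizzled-related protein that binds Wnts, was the most abundant member, at 589.9 FPKM in the old and 463 FPKM in the young library, on 10633 and 7527 reads (ratio 1.27 [1.24 to 1.31], log2 ratio 0.35). Exons of Gm26771 overlap 16.1% of its exon bases. Dkk3, a Dickkopf relative that, unlike Dkk1, is not a clear Wnt inhibitor, was at 134 FPKM in the old and 118 FPKM in the young library (1.13 [1.096 to 1.17]). Sfrp2 made up 81.3% of the antagonists' summed FPKM in the old and 79.3% in the young library, or 68.4% and 65.7% by longest transcript. Its level was 4.396 times that of Dkk3 in the old library and 3.91 times in the young, or 2.18 and 1.94 times by longest transcript.

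Wif1, the Wnt inhibitory factor that osteoblasts make, was at 0.999 FPKM in the old and 1.97 FPKM in the young library (0.507 [0.327 to 0.775]). The other 7 antagonists were at or near 0. Dkk1, the best known Dickkopf inhibitor of LRP6, had 1 read in each library. Dkk2 had 24 reads in the old and 10 in the young library (2.16 [0.997 to 5.07]). Sost, which encodes sclerostin, had 2 reads in the old library and 0 in the young, Frzb had 3 and 0, and Sfrp4 had 1 and 0. Sfrp1 and Sfrp5 had no read, and for Sfrp1 this allows up to 0.0379 FPKM in the old and 0.0420 FPKM in the young library.

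All 4 genes of the destruction complex and β-catenin had log2 ratios below 0, as did 59.6% of all genes. The median was −0.13 over the 4 and −0.07 over all genes. Of the 4, Ctnnb1, the gene of β-catenin, differed most. It was at 313 FPKM in the old and 418 FPKM in the young library, on 8150 and 9807 reads (ratio 0.749 [0.728 to 0.772], log2 ratio −0.42). Mir7090 and Ulk4 cover 15.1% of its exon bases. The scaffold Axin1 was at 53.1 FPKM in the old and 54.7 FPKM in the young library (0.971 [0.911 to 1.04]), and its log2 ratio of −0.04 turned to 0.02 when ratios were centred on the median of all genes. Gsk3b, the kinase of the complex, was at 38.9 FPKM in the old and 41.4 FPKM in the young library (0.938 [0.879 to 1.0004]). Apc, the scaffold whose loss activates the pathway in intestinal tumours, was at 17.9 FPKM in the old and 20.3 FPKM in the young library (0.885 [0.821 to 0.954]). Protein levels and the breakdown of β-catenin were not measured.

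The TCF/LEF factors were led by Tcf7l1, which acts mainly as a repressor, at 93.2 FPKM in the old and 109 FPKM in the young library (0.859 [0.810 to 0.910]). Tcf7l2 was at 33.3 FPKM in the old and 29.7 FPKM in the young library (1.12 [1.03 to 1.22]). The 2 factors that are often targets of the pathway themselves were low. Tcf7 was at 2.39 FPKM in the old and 1.58 FPKM in the young library (1.52 [1.07 to 2.17]), and Lef1 was at 1.29 FPKM in the old and 1.18 FPKM in the young library (1.09 [0.730 to 1.64], with 13.7% of exon bases shared with Gm43352). Reads of Tcf7 and Tcf7l2 did not come out whole, so their intervals are approximate.

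Axin2, the feedback inhibitor most used as a readout of β-catenin activity, was at 9.94 FPKM in the old and 14.2 FPKM in the young library, on 306 and 393 reads (ratio 0.702 [0.603 to 0.817], log2 ratio −0.47). The naked cuticle genes, which restrain the pathway through Dishevelled, gave no such value: Nkd1 had 1 read in each library and Nkd2 none. Of 12 other listed targets, 10 were measured, 7 with log2 ratios above 0 and 3 below, while 40.4% of all genes lay above 0. Ccnd1, cyclin D1, was at 133 FPKM in the old and 81.0 FPKM in the young library (1.64 [1.56 to 1.72]), and LTO1 covers 23.4% of its exon bases. Ccn4, also called WISP1, was at 37.4 FPKM in the old and 23.1 FPKM in the young library (1.62 [1.47 to 1.78]), and Ptgs2, the inducible cyclooxygenase, was at 18.8 FPKM in the old and 9.21 FPKM in the young library (2.04 [1.80 to 2.32]). Myc was at 56.6 FPKM in the old and 81.8 FPKM in the young library (0.692 [0.650 to 0.737]), the same direction as Axin2. Its reads did not come out whole, so that interval is approximate too. The median over these 10 was 0.40, and other pathways are known to control several of them as well.

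Beyond the members, 89 other genes of the pathway were listed, of which 62 passed the filter. On the log2 scale of FPKM + 1 none reached 2-fold in either direction, against 1.97% and 0.868% of all genes, and 3 were 1.5-fold higher and 2 lower. These 3 and 2 are 4.84% and 3.23% of the 62, below the 5.52% and 4.47% of all genes. Their median log2 ratio was −0.04. Ptgs2, Ccnd1 and Ccn4 were the 3 higher genes. The 2 lower ones were Cby1, which binds β-catenin and keeps it from TCF factors, at 39.9 FPKM in the old and 64.0 FPKM in the young library, and Dvl1, a Dishevelled that relays the Frizzled signal, at 18.5 FPKM in the old and 29.8 FPKM in the young library. The other Dishevelleds were nearer to even, with log2 ratios of 0.25 for Dvl2, of whose exon bases 19.7% are shared with other genes, and −0.17 for Dvl3.

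The co-receptors differed little. Lrp5 was at 41.4 FPKM in the old and 39.5 FPKM in the young library (1.05 [0.997 to 1.097]), and Lrp6 was at 73.5 FPKM in the old and 66.4 FPKM in the young library (1.11 [1.06 to 1.16]). Lrp4, which presents sclerostin to them, was at 15.9 FPKM in the old and 13.6 FPKM in the young library (1.17 [1.07 to 1.28]). Wls, the carrier that takes Wnt proteins to the cell surface, was at 83.6 FPKM in the old and 64.9 FPKM in the young library (1.29 [1.22 to 1.35]). Porcn, which adds the lipid that Wnts need for secretion, was at 3.30 FPKM in the old and 3.90 FPKM in the young library (0.845 [0.642 to 1.11]). Notum, a secreted enzyme that removes that lipid, stayed under the filter. It was at 0.969 FPKM in the old and 0.767 FPKM in the young library, on 28 and 20 reads. Myadml2os and Notumos cover 38.1% of its exon bases. Of the 10 other ligands listed, 9 had no read and Wnt1 had the 1 read given above.

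Signal transduction genes numbered 17 measured, with 5 log2 ratios above 0 and 12 below, while 59.6% of all genes lay below 0. The median was −0.09 over the 17 and −0.07 over all genes. Jup, γ-catenin, had the highest ratio of the 17, at a low level. It was at 5.90 FPKM in the old and 3.94 FPKM in the young library (1.496 [1.14 to 1.97]). Of the nuclear co-factors 12 were measured, with a median of −0.09. Among the Groucho-type co-repressors that bind TCF factors, Tle2 was at 80.1 FPKM in the old and 108 FPKM in the young library (0.739 [0.699 to 0.781]), while Tle3 was at 28.3 FPKM in the old and 22.9 FPKM in the young library (1.24 [1.14 to 1.34]). The 10 measured genes of planar polarity and calcium signalling, branches that bypass β-catenin, had a median of −0.02 and ranged from −0.29 for Camk2d to 0.28 for Prickle3. Tnfrsf11b, which encodes osteoprotegerin, the decoy that limits osteoclast formation, was among the listed targets at 6.09 FPKM in the old and 3.76 FPKM in the young library (1.62 [1.34 to 1.96]), and Jag1, a Notch ligand, at 5.59 FPKM in the old and 8.70 FPKM in the young library (0.642 [0.559 to 0.736]).

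**Figure D5:**
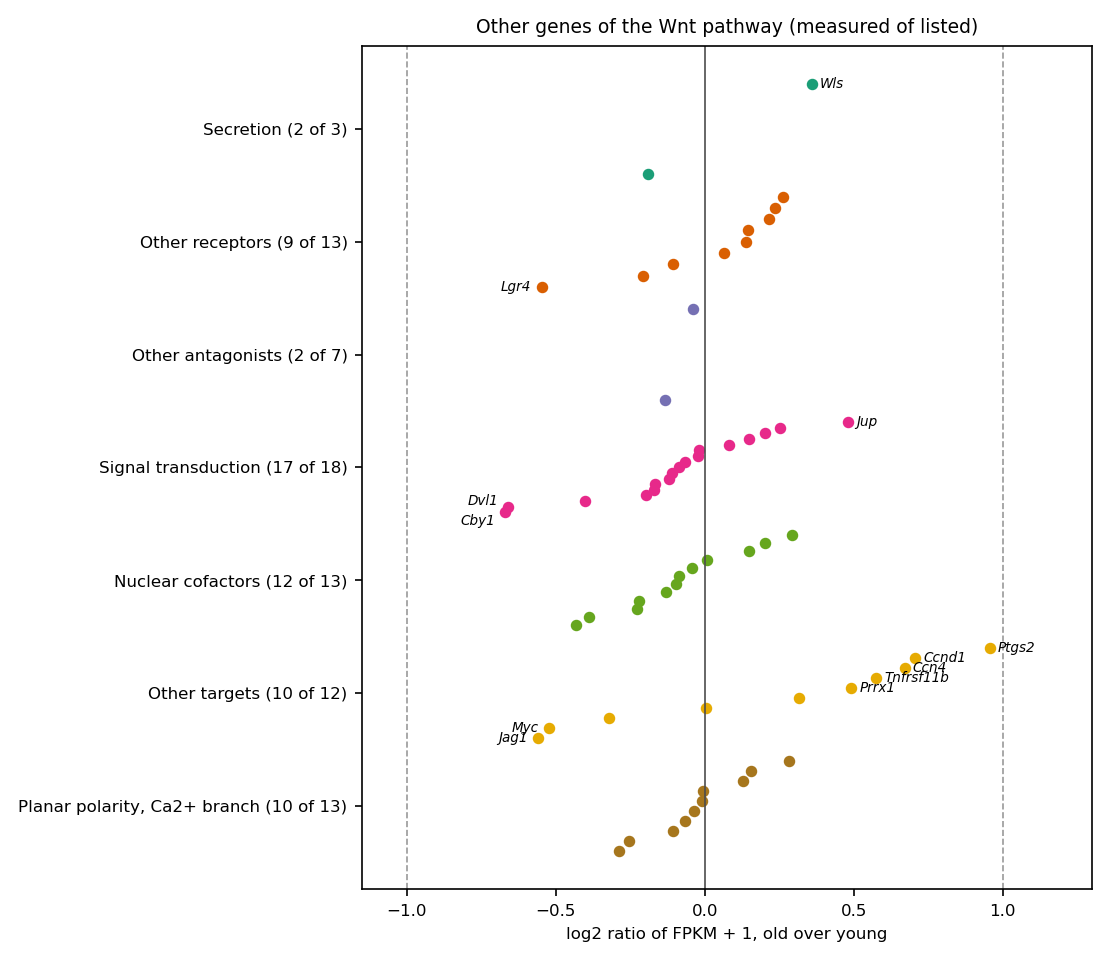
Log2 ratio of FPKM + 1, old over young, of the 62 measured other genes of the pathway, one point per gene, grouped by role with the number measured of those listed. All points lie within the dashed lines at 2-fold. Ptgs2, at 0.96, and Cby1, at −0.67, are the outermost.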

How the data were processed

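RNA-seq libraries of apoptotic osteoblasts, 1 from old and 1 from young mice, were grouped by their age label. The authors deposited 1 FPKM value per gene and library. Per the submitters' processing notes the tools were fastp, STAR, HTSeq and edgeR and the build mm10; what each did, with which annotation, filters or strand setting, is not stated there. Identifiers were matched to GENCODE M21 on GRCm38 (55227 of 55487), and Tle5 through its older symbol Aes. Multiplied by the mean annotated transcript length, rounded, the FPKM of 97.6% of genes with reads in each library gave whole reads within 0.01. FPKM levels therefore depend on that length, and levels were also computed by longest transcript, a choice made after seeing the data.

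Ratios are log2 of FPKM + 1 for genes averaging 1 FPKM or more. Intervals come from exact Clopper-Pearson limits on the fraction of a gene's reads that were in the old library, and a gene without reads was given 3 reads as its limit; PCR copies are not independent, so both cover counting error only. Shared sequence was sought with words of 50 bases taken every 25 bases; no member shared over 4.22% of its words with other genes. Named genes are all members by role, with the co-receptors, Lgr4, the secretion genes and any other pathway gene at 2-fold; the other pathway genes named were chosen after their values were seen. Members and lists were chosen with earlier results of these data known. The calculation was tested on simulated data. Python 3.11.15, pandas 2.3.3, scipy 1.17.1 and matplotlib 3.10.9 were used.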

Additional observations from a re-analysis of the deposited data

How the results depend on the processing

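Rspo2 was the 1 member at 2-fold, higher in the old library, under all 6 alternatives, and its log2 ratio ranged from 1.21 (pseudocount 5) to 1.87 (pseudocount 0.1). Rspo2, Wnt10a and Fzd1 were the 3 members 1.5-fold higher in every setting. What these counts are set against did change. The 29 members became 42 without a filter and 16 under a 10 FPKM filter. The share of all genes 2-fold higher moved from 1.97% to between 0.804% (pseudocount 5) and 3.25% (pseudocount 0.1). At 1.5-fold higher it moved from 5.52% to between 2.77% and 7.03% in the same 2 settings. The 2 members 1.5-fold lower were 5 at a pseudocount of 0.1, when Fzd6, Fzd9 and Wif1 joined, 4 without the 10 most abundant genes, and 1 (Wnt10b) with pseudocount 5 and under a 10 FPKM filter, which leaves out Fzd5. The share of all genes 1.5-fold lower moved as well, from 4.47% to 6.85%, 4.78%, 1.11% and 2.52% in these settings. Of the other pathway genes, 1 (Ptgs2) was 2-fold higher at a pseudocount of 0.1 and after centring on the median of all genes. Over all genes, pseudocount 0.1 gave 408 genes 2-fold higher and 236 lower, pseudocount 5 gave 101 and 20, and the 10 FPKM filter gave 106 and 27. Centring turned Axin1, Wnt5a and Znrf3 from just below 0 to 0.02, 0.02 and 0.01. No paired analysis was possible because there is 1 library per group. Depth limits the members with few reads, Wif1, Lef1 and Tcf7 among those measured.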

Other observations

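The genes that flank the members with the largest differences were looked up after the values were seen, taking the nearest 2 measured protein-coding genes on each side. Around Rspo2 they were near even, with log2 ratios of FPKM + 1 of −0.20 for Lrp12, 0.14 for Oxr1, 0.05 for Eif3e and 0.03 for Emc2, against 1.70 for Rspo2 itself. Eif3e, the nearest, lies 79231 bases away. Around Wnt10b, its close neighbours Arf3, Fkbp11, Prkag1 and Kmt2d had log2 ratios of 0.25, 0.05, −0.26 and 0.09, against −0.93 for Wnt10b. Around Wnt10a, Wnt6 (0.48) shared its direction, while Prkag3, beyond Wnt6, was at 1.56 FPKM in the old and 2.26 FPKM in the young library (0.689 [0.476 to 0.992]). On the other side, Nhej1 (0.41) also had the direction of Wnt10a, with a ratio of FPKM of 1.40 [0.932 to 2.11], an interval that includes 1. Cnppd1 was at 25.7 FPKM in the old and 29.4 FPKM in the young library (0.872 [0.787 to 0.966]). Around Fzd1, at 0.75, Cdk14 (45355 bases away), Mterf1b and Cldn12 had log2 ratios of 0.10, −0.11 and −0.05. Cyp51, 649092 bases away, shared its direction at 185 FPKM in the old and 124 FPKM in the young library (1.49 [1.42 to 1.56], log2 ratio 0.57). Around Fzd5, Ccnyl1 (4913 bases away), Mettl21a and Idh1 had −0.13, −0.07 and 0.11, and Plekhm3 was at 5.24 FPKM in the old and 7.58 FPKM in the young library (0.691 [0.591 to 0.809]), in the direction of Fzd5 at −0.72.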
